A study of Mus musculus with 9 samples.

Results

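The transcriptome described here is that of control 4T1 cells, read from the 3 libraries labelled shCTRL among the 9 libraries of the series. 4T1 is an established mouse mammary carcinoma line that arose in a BALB/c mouse and is used as a model of metastatic breast cancer. The other 6 libraries carry hairpins against Yap1, the series asks what changes after knockdown of that gene, and they were not used for any value below. All 3 control libraries are labelled as wild type in genotype and as a negative control in treatment, with breast cancer as the cell type. The vector and target sequence of the control hairpin and whether the cells were a pool or 1 clone are not given in the sources used here. The labels do not say whether the replicates came from separate cultures, so the spread between them may be technical. With 1 group there is no contrast and no test, and each result is a level with its spread over 3 libraries.

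The authors computed each level as FPKM, the fragments of a gene scaled to its transcript length in kilobases and to the M of fragments mapped, and rounded it to 2 decimals. FPKM corrects for length, so levels of different genes can be set side by side. Sets of 3 values are given in the order of replicates 1, 2 and 3. A value for the control libraries was present for 16962 genes, of which 16887 are annotated as protein-coding. For annotated genes outside these 16962 no level was analysed here. A gene was called expressed at 1 FPKM or more in all 3 libraries, high if its mean was also at least 100 FPKM, near zero if it was under 0.1 FPKM in all 3 libraries, and low otherwise. By an estimate made from the values, the libraries hold 24.6, 22.15 and 24.3 M fragments, so that 0.1 FPKM stands for 4.9, 4.4 and 4.9 fragments of a transcript of 2 kb. The 3 libraries were alike over expressed genes, with Pearson r between 0.9951 and 0.9964 on log2(FPKM + 1) across genes, which are not independent replicates. Replicate 3 stood apart in 1 family, the clustered histone genes, described with the histones below.

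4T1 cells are epithelial tumour cells, and epithelial cells are held together by E-cadherin and claudins and stiffened by keratin filaments. Mammary epithelium has an inner luminal layer, marked by Krt8 and Krt18, and an outer basal or myoepithelial layer, marked by Krt5, Krt14, Trp63 and Acta2. Carcinoma cells that migrate often carry part of a mesenchymal program, with vimentin filaments, fibronectin and transcription factors of the Snail, Twist and Zeb families, beside or in place of the epithelial one. A bulk library averages over its cells, so fewer cells with a transcript and less of it per cell cannot be told apart in any value here.

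Of the 16962 genes, 10145 were expressed (59.8%), 714 were high (4.21%), 2446 were low and 4371 were near zero (25.8%). The share of 59.8% is the one to set beside each count of expressed members below. Among the genes near zero, 1794 were listed at 0 in all 3 libraries. Abundance was concentrated in few genes. The 10 most abundant genes held 8.64%, 8.9% and 8.98% of the summed FPKM, and the 100 most abundant held 33.33%, 33.84% and 33.98%, a mean of 33.7% ± 0.34 (SD, n = 3). FPKM divides by length; counted as fragments (FPKM multiplied by exonic length), the 100 leading genes held a mean of 22.35% of the sum. It took 329, 319 and 311 genes to reach 50% of the summed FPKM, and 4315, 4258 and 4222 genes to reach 90%. The ranking was stable at the top, since 95 genes were among the 100 most abundant in all 3 libraries.

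**Figure D1:**
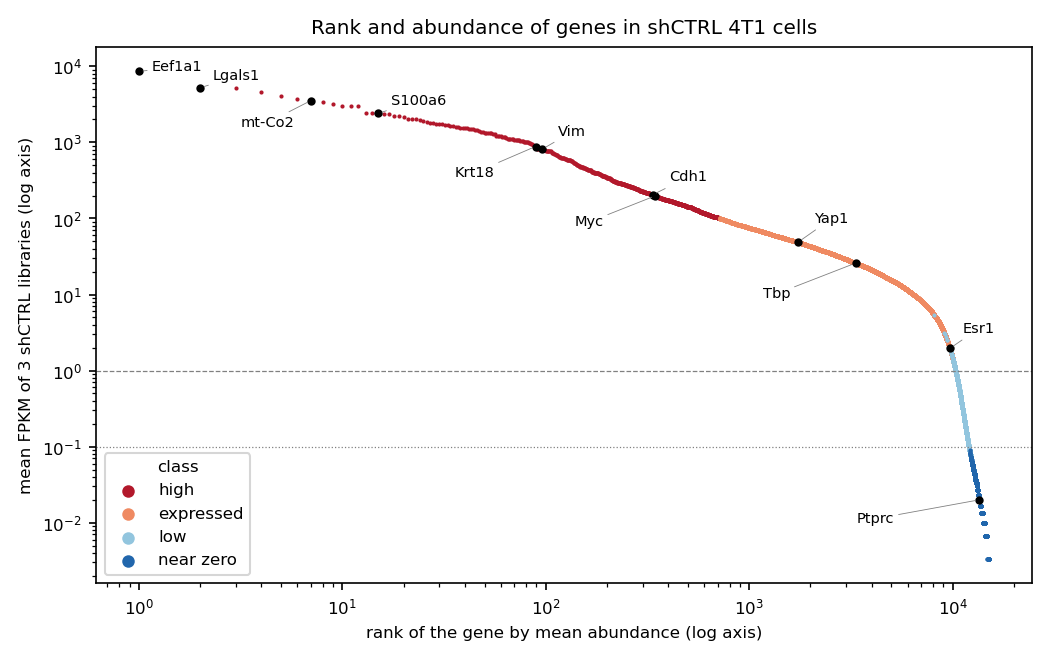
Mean FPKM of 3 shCTRL libraries (log axis) against the rank of each gene (log axis), coloured by abundance class, with 12 genes named and dashed and dotted lines at 1 and 0.1 FPKM. The curve declines slowly over the first ranks and drops steeply past about the 10145 expressed genes; genes at 0 in all 3 libraries are not drawn.

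The most abundant transcripts belonged to protein synthesis. Eef1a1, the translation elongation factor that brings aminoacyl-tRNA to the ribosome, led the ranking at 8182, 8834 and 8725 FPKM. Of the 50 most abundant genes, 26 encoded proteins of the cytosolic ribosome, with means between 1324 and 5193 FPKM, among them Rps2, Rplp0, Rplp1, Rps12, Rpl41, Rpl13, Rpsa, Rps15, Rps26 and Rpl8. Over the whole family, 80 of 81 genes with a value were expressed and 77 were high, and together they took 19.53%, 19.79% and 19.86% of the summed FPKM. Further members of the translation machinery in the top 50 were Eef2, the elongation factor of ribosome translocation, at 2258, 2465 and 2509 FPKM, and Rack1, a scaffold on the small ribosomal subunit, at 1441, 1561 and 1590.2 FPKM. The ribosomal proteins of mitochondria were far less abundant: all 78 were expressed, at a median of 29.21 FPKM against 1080.67 FPKM for the cytosolic family.

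Of the mitochondrially encoded transcripts, 5 were in the top 50, mt-Co2, mt-Co1, mt-Co3, mt-Atp6 and mt-Cytb, which encode subunits of cytochrome c oxidase, of ATP synthase and of the cytochrome bc1 complex. mt-Co2 was measured at 3797, 3513 and 3324 FPKM and mt-Co1 at 3508, 3148 and 2976 FPKM. The 13 mitochondrially encoded protein genes were all expressed and took 3.59%, 3.19% and 3.04% of the summed FPKM. Their order over the libraries was shared, since 11 of the 13 were highest in replicate 1, against 40.1% of all expressed genes.

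Outside protein synthesis and mitochondria, the most abundant gene was Lgals1, which encodes galectin-1, a secreted lectin that binds beta-galactosides on cell surfaces and in the matrix. Its values were 5011, 5258 and 5398 FPKM, rank 2 of all genes. Galectin-1 made up 96.7% of the summed FPKM of the 8 galectin genes with a value, and Lgals3 followed at a mean of 153 FPKM. S100a6, a calcium-binding S100 protein, had 2378, 2371 and 2478 FPKM, S100a11 had 1174, 1172 and 1271 FPKM and S100a4, a member known for its link to motile and metastatic tumour cells, had 287, 292 and 311 FPKM. Of 13 S100 genes 7 were expressed, 53.8% against 59.8% of all genes, and 4 were high, with S100a10 as the fourth at 626 FPKM. The S100A10 protein pairs with annexin A2, and Anxa2 was the leading annexin at 913, 965 and 973 FPKM. All 10 annexin genes with a value were expressed.

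Glycolytic enzymes, chaperones, actins and ferritins made up most of the rest of the top 50. Gapdh and Pkm, the glyceraldehyde-phosphate dehydrogenase and the muscle-type pyruvate kinase gene, had 3831, 4119.6 and 4394 FPKM and 1914, 2053 and 2129.6 FPKM. Hsp90ab1 and Hspa8, the constitutive cytosolic members of the Hsp90 and Hsp70 chaperones, had means of 2377 and 1818 FPKM. Ppia, which encodes the prolyl isomerase cyclophilin A, had 2344, 2212 and 2203 FPKM. The nuclear proteins Npm1, the nucleolar histone chaperone nucleophosmin, and Ptma, prothymosin alpha, averaged 1955 ± 35.4 and 1689 ± 62.1 FPKM (SD, n = 3), and Tpt1, a small cytosolic protein regulated with translation, averaged 1647 ± 31.7 FPKM. The iron storage pair Ftl1 and Fth1 averaged 1795 ± 40.1 and 1434 ± 46.5 FPKM, and the cytoplasmic actins Actg1 and Actb averaged 1752 ± 150.03 and 1490.3 ± 211 FPKM. Actb had the widest relative spread of these, with values of 1300.01, 1454 and 1717 FPKM in the 3 libraries.

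Some abundant genes have near-identical copies. Gm10260, which has the name of a predicted gene, had 1803, 1899 and 1912 FPKM, and its longest annotated transcript matched one of Rps18, a protein of the small ribosomal subunit, at 99.1% identity over 545 bases, where Rps18 had only 50.8, 45.4 and 42.5 FPKM. The FPKM of such near-identical copies depends on how the authors' counting divided shared reads, so neither member of this pair has a level that can be read alone. The same holds for Eno1b and Eno1 (99.5% identity over 1652 bases), at 1176 and 455 FPKM, and for Hmga1b and Hmga1 (99.8% over 1602 bases), at 487 and 360.2 FPKM.

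Luminal epithelial genes held many abundant members. Of 20 with a value, 14 were expressed, 70.0% against 59.8% of all genes, and 8 were high, against 4.21% of all genes, with a median of the members' means of 35.8 FPKM. Krt18 and Krt8, the keratin pair of simple epithelia, had 868, 894 and 886 FPKM and 604, 637 and 676 FPKM, and Krt7 had 359.9, 372 and 418 FPKM. The junction genes Cdh1, Epcam, Cldn4 and Cldn3 had means of 205, 172, 218 and 130.2 FPKM. Cd24a, a surface glycoprotein of luminal cells, averaged 150.1 ± 5.9001 FPKM. The differentiation factors of the luminal lineage were less abundant than these structural genes. Gata3 had 22.2, 23.4 and 21.99 FPKM and Elf3 had 11.3, 11.9 and 9.63 FPKM, while Foxa1 had 1.13, 0.97 and 0.97 FPKM and Ehf had 0.45, 0.09 and 0.52 FPKM, and Elf5, the factor of milk-secreting alveolar cells, had 0, 0.02 and 0 FPKM.

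Hormone and growth factor receptors used to class breast tumours had modest levels. Esr1, the estrogen receptor alpha gene, had 1.99, 2.27 and 1.61 FPKM, Esr2 had 0.16, 0.12 and 0.08 FPKM and the progesterone receptor gene Pgr was not analysed here. Erbb2, the gene of HER2, had 12.5, 12.03 and 13.6 FPKM, below the median of 15.36, 15.12 and 14.98 FPKM of the genes at or above 1 FPKM in each library. The prolactin receptor gene Prlr had 0, 0 and 0.01 FPKM. Among 7 genes of milk and its secretion with a value, 3 were expressed: Mfge8, the milk fat globule protein, at 53.1, 56.3 and 60.3 FPKM, Lcn2, lipocalin-2, at 8.37, 8.47 and 7.99 FPKM, and Xdh, xanthine dehydrogenase, at 2.49, 2.82 and 2.84 FPKM. Wap, the whey acidic protein gene, was listed at 0 in all 3 libraries, and Csn3, the kappa-casein gene, had 0.29, 0.55 and 0.33 FPKM. Btn1a1 had 0.13, 0.52 and 0.52 FPKM and Ltf, lactoferrin, had 0.09, 0.08 and 0.11 FPKM.

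Basal genes were partly present. Of 17 with a value, 7 were expressed, 41.2% against 59.8% of all genes, and 0 were high, with a median of 0.09 FPKM. Krt14 led at 67.6, 70.3 and 77.7 FPKM, followed by Cav1, caveolin-1, at 33.4, 35.05 and 36.03 FPKM and Procr, the protein C receptor, at 22.6, 23.4 and 26.6 FPKM. Krt5, the usual filament partner of Krt14 in basal cells, had 2.44, 1.92 and 2.42 FPKM, and Krt17 had 1.87, 1.42 and 1.3 FPKM. Of the 4 genes named above as marks of this layer, Krt14 and Krt5 were thus expressed and the other two did not pass 0.13 FPKM in any library: Trp63, the p63 factor of basal epithelia, had 0.06, 0.13 and 0.08 FPKM, and Acta2, smooth muscle actin, had 0.08, 0.07 and 0.1 FPKM. Across all 41 keratin genes with a value, 11 were expressed (7 at a threshold of 2 FPKM) and 22 were near zero, and Krt18, Krt8 and Krt7 were the only ones in the high class.

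Mesenchymal genes split. Of 16, 8 were expressed and 4 were high, beside 4 near zero. Vim, the vimentin gene, had 764, 826 and 853 FPKM, of the same order as Krt18, and Fn1, the fibronectin gene, had 486, 512 and 531 FPKM. Spp1, which encodes osteopontin, a secreted matrix protein, had 231, 234 and 234 FPKM. The transcription factors Twist1, Zeb2 and Snai1 had 12.1, 12.1 and 10.6 FPKM, 8.31, 8.14 and 10.5 FPKM and 8.03, 7.56 and 9.17 FPKM, whereas Zeb1 had 0.24, 0.13 and 0.19 FPKM, Snai2 had 0.08, 0.09 and 0.02 FPKM and Prrx1 had 0, 0.02 and 0 FPKM. Cdh2, the N-cadherin gene, was listed at 0 in all 3 libraries. E-cadherin made up 99.9% ± 0.029 (SD, n = 3) of the summed FPKM of the classical cadherins with a value (Cdh1 to Cdh5). Of all 14 cadherin genes with a value 3 were expressed, with Cdh1 at 95.9% of the summed FPKM of the 14, Cdh24 at 5.42, 4.88 and 5.05 FPKM and Cdh11, a cadherin of mesenchymal cells, at 2.14, 2.31 and 2.36 FPKM.

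Markers of other cell types were counted over their whole lists. Of 15 leukocyte markers 1 was expressed, Cd68 at 7.72, 7.69 and 7.95 FPKM, and the list summed to 8.58, 8.93 and 8.92 FPKM. The common leukocyte antigen gene Ptprc had 0.01, 0.03 and 0.02 FPKM, Adgre1 had 0.01, 0 and 0 FPKM, and Cd3e, Cd8a, Cd79a and Nkg7 were listed at 0. Of 9 endothelial markers 1 was expressed, Flt1 at 5.2, 4.51 and 4.98 FPKM, with Pecam1 at 0.05, 0.02 and 0.06 FPKM and Kdr listed at 0, and the list summed to 5.39, 4.65 and 5.15 FPKM. Among 9 fibroblast markers 2 were expressed, Postn at 5.28, 4.89 and 5 FPKM and Pdgfra at 3.69, 3.42 and 4.13 FPKM, while Col1a1 had 0.15, 0.23 and 0.23 FPKM and Dcn had 0.12, 0.2 and 0.05 FPKM, and the list summed to 9.77, 9.28 and 9.54 FPKM. None of 6 adipocyte markers, 7 hepatocyte markers, 8 pluripotency and germ cell genes and 4 Y chromosome genes was expressed, and their lists summed to at most 0.33 FPKM in any library.

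Of 8 skeletal and cardiac muscle markers 3 were expressed, 37.5% against 59.8% of all genes, and 1 at a threshold of 2 FPKM. Tnnt2, the cardiac troponin T gene, was high at 154, 149.9 and 151 FPKM. The other 7, of which Tnnt3 and Acta1 were expressed, had means of at most 1.56 FPKM. Of 6 neuronal markers 1 was expressed, Map2, a microtubule protein of dendrites, at 14.3, 9.64 and 8.61 FPKM. Tubb3 had 0.14, 0.77 and 0.55 FPKM and Stmn2 and Rbfox3 were listed at 0.

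**Figure D2:**
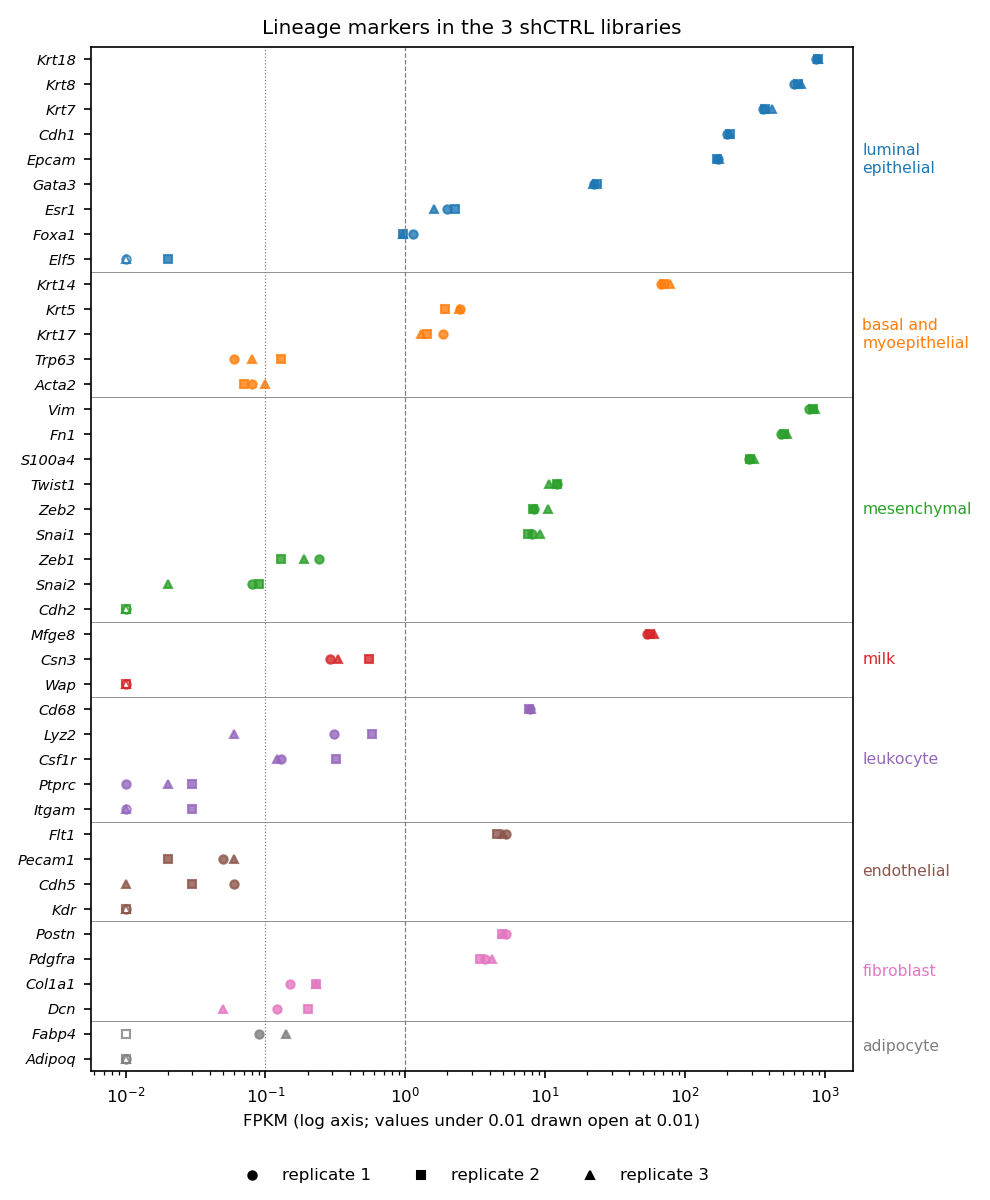
FPKM (log axis) of 41 lineage genes in each of the 3 shCTRL libraries, with a marker shape per replicate and dashed and dotted lines at 1 and 0.1 FPKM. Luminal keratins and Vim lie together at the right, whereas Cdh2, Wap, Kdr and Adipoq lie at the left edge, where values under 0.01 FPKM are drawn open.

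To show the letters at the start of such genes, 6 promoters are printed: the luminal keratin genes Krt18 and Krt8, the mesenchymal gene Vim, the leading integrin and receptor kinase genes Itga3 and Axl, and Wap, which was listed at 0. Each line gives 100 bases before and 30 bases from the RefSeq start of transcription on, 5′ to 3′ on the gene's strand, from RefSeq on GRCm38.p6. Capitals mark the TATA box motif TATAAA, the NF-Y motif CCAAT and the GC box motif GGGCGG on either strand.

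Krt18, chr15:102028116-102028245, plus strand: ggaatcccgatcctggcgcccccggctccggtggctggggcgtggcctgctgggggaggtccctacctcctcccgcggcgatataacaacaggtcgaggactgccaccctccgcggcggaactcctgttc
Krt8, chr15:102004313-102004442, minus strand: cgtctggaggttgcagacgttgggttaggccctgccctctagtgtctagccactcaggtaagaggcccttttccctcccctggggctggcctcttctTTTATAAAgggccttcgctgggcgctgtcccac
Vim, chr2:13574211-13574340, plus strand: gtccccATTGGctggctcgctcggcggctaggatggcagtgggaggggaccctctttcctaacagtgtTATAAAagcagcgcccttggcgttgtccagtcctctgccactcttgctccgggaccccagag
Itga3, chr11:95076685-95076814, minus strand: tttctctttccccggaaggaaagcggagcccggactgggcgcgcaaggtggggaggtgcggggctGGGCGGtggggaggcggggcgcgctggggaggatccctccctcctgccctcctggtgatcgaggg
Axl, chr7:25788704-25788833, minus strand: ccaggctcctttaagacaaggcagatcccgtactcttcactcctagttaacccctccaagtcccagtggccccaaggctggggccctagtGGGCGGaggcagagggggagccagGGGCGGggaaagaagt
Wap, chr11:6638620-6638749, minus strand: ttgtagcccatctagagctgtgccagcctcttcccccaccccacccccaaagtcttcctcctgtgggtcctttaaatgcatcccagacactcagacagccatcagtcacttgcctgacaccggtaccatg

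Within these 130 bases, Vim held a TATAAA match starting at position -32 from the start and a CCAAT match on the other strand, and Krt8 held TATAAA matches on both strands that overlap each other and span the RefSeq start, from position -3 on. Itga3 held 1 GGGCGG match and Axl held 2, and Krt18 and Wap held none of the 3 motifs. These 6 were picked from 11 promoters whose bases were looked up. Of those not printed, S100a6, Cxcl1 and Mt2 held none of the 3 motifs, and Spp1 and Alb held CCAAT alone. For scale, 6.8% of the 16895 promoters matched to a coding gene hold TATAAA in the same window, 24.2% hold CCAAT and 38.5% hold GGGCGG. The share with TATAAA was 6.6% among high genes and 1.9% among the other expressed genes, CCAAT was in 30.6% and 25.9%, and GGGCGG was in 56.3% and 56.5%. A match is a description of these letters and says nothing of factor binding.

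Over the full 300-base promoters, TATAAA was found in 11.4% of high genes and 5.7% of other expressed genes, the E-box CACGTG, bound by MYC and USF proteins, in 14.4% and 10.5%, and the AP-1 motif TGANTCA in 6.9% and 4.3%. The motif CATTCC, bound by TEAD factors, was in 11.2% and 11.4%. The ratio of observed to expected CpG had a median of 0.834 in high genes, 0.798 in other expressed genes and 0.599 over all promoters. A promoter sequence was at hand for 81.5% of high and 83.5% of other expressed coding genes; for low genes, genes near zero and genes without a value it was under 80%, so the comparison with them is void for want of sequences.

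Gene structure also differed by abundance class. On the chromosomes covered by the promoter table, the longest annotated transcript of high genes had a median of 2200 bases, against 3516 bases for the other expressed genes, 2616 for low genes and 2873 for genes near zero. High genes spanned a median of 10.7 kb of genome with 8 exons, and other expressed genes 25.4 kb with 10 exons. Single-exon genes made up 2.2% of high genes, 1.4% of other expressed genes and 5.4% of genes near zero. Genes without a value were the smallest, at 1786 bases, 4 exons and 15.1% with a single exon. The classes rest on FPKM, which itself divides by length, and lengths were not compared over classes made from fragments.

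Receptor tyrosine kinases, the cell surface receptors for most growth factors, were expressed in 18 of 38 cases, 47.4% against 59.8% of all genes. Axl, a receptor of the TAM subfamily that is activated by the ligand Gas6, led at 276, 286 and 289 FPKM, and its share of the TAM receptors was 97.4% ± 0.15 (SD, n = 3). Its ligand gene Gas6 had 0.06, 0.05 and 0.08 FPKM. Epha2, a receptor for ephrin-A ligands, had 102, 115 and 113 FPKM, and Efna1, one of those ligands, had 34.2, 36.4 and 34.1 FPKM. Ddr2, a collagen receptor, had 57.5, 56.4 and 52.3 FPKM and Met, the receptor of hepatocyte growth factor, had 50.1, 53.4 and 50.4 FPKM, while Hgf was listed at 0. Fgfr2 had 45.7, 47.6 and 49.5 FPKM and made up 92.1% ± 0.44 of its family, although only 2 of 15 fibroblast growth factor genes were expressed, Fgf21 at 1.46 FPKM and Fgf11 at 1.04 FPKM, and 0 at a threshold of 2 FPKM. Of the ErbB receptors, Erbb2 and Erbb3 took 55.3% ± 0.61 and 40.9% ± 0.71 of the summed FPKM. Egfr had 0.77, 0.91 and 0.95 FPKM and Erbb4 was listed at 0.

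Growth factor genes were expressed in 15 of 29 cases, 51.7% against 59.8% of all genes. Pdgfb, a platelet-derived growth factor chain, led at 50.9, 49.7 and 55.3 FPKM, and the receptor gene Pdgfrb had 0.01, 0 and 0.01 FPKM. The other receptor gene for these factors, Pdgfra, was expressed, as given with the fibroblast markers. Inhba, the activin A subunit, had 47.3, 48.5 and 48.5 FPKM. Ligands of the EGF receptor followed, Hbegf at 34.2, 35.1 and 32.5 FPKM, Areg at 24.3, 24.2 and 22.7 FPKM and Tgfa at 20.8, 20.5 and 20.9 FPKM, each above the level of Egfr itself in all 3 libraries. Vegfb and Vegfa, ligands of the endothelial VEGF receptors, had means of 25.5 and 16.4 FPKM, and Tgfb1 had 13.9, 13.3 and 16.3 FPKM.

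Cytokines and chemokines were carried by few members. Of 24 cytokine genes 12 were expressed, and Mif, macrophage migration inhibitory factor, alone took 82.6% of their summed FPKM at 1000.4, 1096 and 1148 FPKM. The colony-stimulating factors, which drive the growth of myeloid cells, were all expressed: Csf1 for macrophages at 81.3, 76.2 and 75.8 FPKM, Csf3 for granulocytes at 37.6, 39.3 and 35.9 FPKM and Csf2 for both at 4.25, 3.77 and 3.41 FPKM. Il1a had 43.1, 47.4 and 39.9 FPKM and Lif, leukemia inhibitory factor, had 21.9, 21.3 and 19.9 FPKM, whereas Il1b had 0.6, 0.76 and 0.46 FPKM, Tnf had 0.27, 0.16 and 0.25 FPKM and Il6 had 0.1, 0 and 0.02 FPKM. Among 25 interleukin genes, Il24 and Il23a followed Il1a at means of 24.7 and 19.1 FPKM. Chemokines were expressed in 8 of 26 cases: Cxcl1 and Cxcl5, which attract neutrophils, at 90.8, 103 and 84.6 FPKM and 19.6, 19.3 and 17.8 FPKM, Cxcl16 at 58.5, 58.9 and 58.3 FPKM and Ccl20 at 13.1, 16.6 and 12.2 FPKM. Cxcl9, an interferon-induced attractant of T cells, was listed at 0, and Cxcl10 had 1.01, 0.33 and 0.38 FPKM. Of 16 chemokine receptor genes 1 was expressed, the scavenging receptor Ackr3, at 22.2, 23.1 and 23.9 FPKM.

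Transcripts for antigen presentation by MHC class I were present throughout, with all 19 genes of its heavy chains and peptide loading expressed. B2m, the shared light chain, had 295, 277 and 274 FPKM, and the heavy chains H2-D1 and H2-K1 had 111, 118 and 122 FPKM and 31.5, 34.3 and 35.3 FPKM. These heavy chains share 90.6% of 1404 aligned bases, and H2-K1 shares 91.4% of 945 bases with H2-Q4, at a mean of 37.91 FPKM. The split among these genes thus depends in part on how shared reads were assigned. The peptide transporters Tap1 and Tap2 had 2.1, 2.61 and 2.5 FPKM and 9.28, 10.96 and 8.94 FPKM, and Nlrc5, the transactivator of class I genes, had 2.05, 1.3 and 1.36 FPKM. MHC class II was largely silent: 2 of 9 genes were expressed, the invariant chain Cd74 at 4.78, 4.86 and 5.29 FPKM and H2-DMa at 2.16, 2.05 and 2.36 FPKM, while the transactivator Ciita had 0.02, 0.07 and 0.04 FPKM. Among 22 immune ligands 10 were expressed, 45.5% against 59.8% of all genes. Nt5e, the ectoenzyme CD73 that makes adenosine, had 72.9, 72.9 and 70.3 FPKM. Cd47, which inhibits phagocytosis, had 75.4, 71.7 and 68.4 FPKM and Cd276 had 24.4, 26.2 and 27.9 FPKM.

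Sensors and receptors of the interferon response were expressed in 23 of 26 cases. Irf1, an interferon-responsive factor, had 37.96, 37.7 and 36.7 FPKM, and the receptor chains Ifnar1 and Ifngr1 had means of 17.7 and 14.3 FPKM. The sensors of double-stranded RNA Tlr3 and Ddx58 had 14.2, 9.35 and 11.6 FPKM and 11.04, 10.6 and 10.5 FPKM, and the DNA sensor Cgas had 5.57, 5.6 and 5.48 FPKM. The 3 genes below the threshold were interferon-induced ones: Irf7 at 0.61, 0.8 and 1.05 FPKM, Ifit1 at 0.57, 0.42 and 0.5 FPKM and Mx1 at 0.05, 0.11 and 0.02 FPKM. None of 5 type I interferon genes with a value was expressed.

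**Figure D3:**
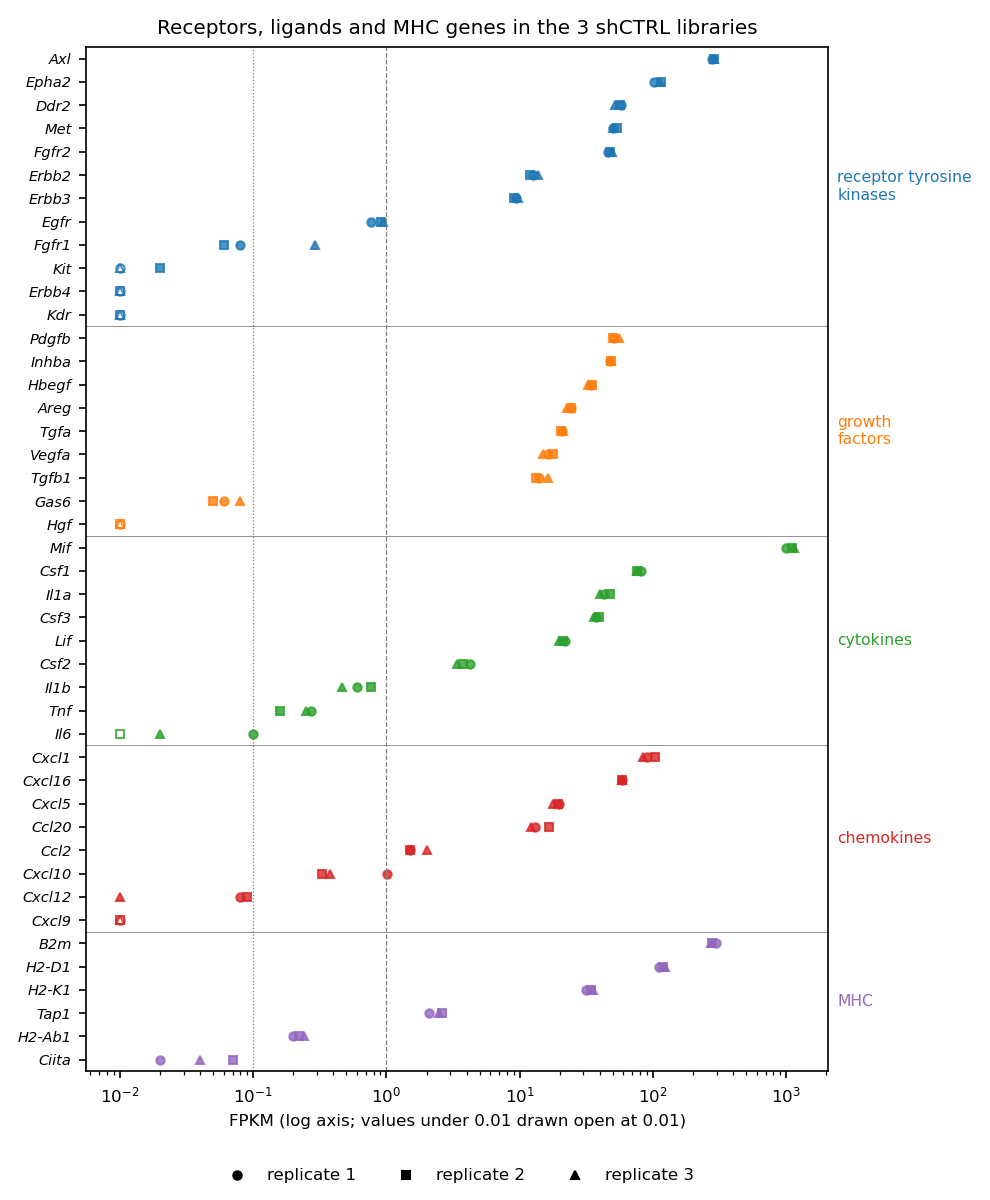
FPKM (log axis) of 44 receptor, ligand and MHC genes in each of the 3 shCTRL libraries, with a marker shape per replicate and lines at 1 and 0.1 FPKM. Within each class 1 or a few genes lie far to the right, such as Axl, Mif, Cxcl1 and B2m, and others, such as Erbb4, Hgf, Il6, Cxcl9 and Ciita, lie at the left.

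Integrin transcripts, for adhesion to matrix, were led by a single alpha and beta chain pair. Itga3, whose protein binds laminin together with the beta-1 chain, had 554, 592 and 614 FPKM and made up 80.9% ± 1.1 (SD, n = 3) of the alpha chains, and Itgb1 had 353, 355 and 352 FPKM and made up 78.7% ± 1 of the beta chains. Of 27 integrin genes 12 were expressed, 44.4% against 59.8% of all genes. Near zero were 11, among them the leukocyte chains Itgal, Itgam and Itgax. Laminin chains of epithelial basement membrane were present: Lamb3 had 68.4, 73.2 and 73.6 FPKM, Lama3 had 20.8, 20.2 and 19.98 FPKM and Lama5 had 88.1, 90.8 and 96.5 FPKM. Collagens were expressed in 10 of 39 cases, led by the basement membrane chains Col4a1 at 82.2, 71.4 and 82.4 FPKM and Col4a2 at 50.3, 51.3 and 54.98 FPKM, with Col18a1 at 66.6 FPKM.

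Proteases of the matrix followed the same pattern of few leading members. Of 19 matrix metalloproteinase genes 6 were expressed, led by the membrane-bound Mmp14 at 76.1, 73.96 and 74.95 FPKM and the gelatinase Mmp9 at 55.4, 54.9 and 60.1 FPKM, whereas Mmp2, the other gelatinase, had 0.08, 0.03 and 0.08 FPKM. The urokinase Plau and its receptor Plaur had 118, 122 and 124 FPKM and 87.2, 93.95 and 96.8 FPKM. The inhibitors Timp2 and Timp1 had means of 129 and 47.99 FPKM, and Timp3 had 0.02, 0 and 0.01 FPKM. Ctsl, the lysosomal protease cathepsin L, had 564, 583 and 557 FPKM and took 56.8% of the summed FPKM of the cathepsins. Thbs1, thrombospondin-1, had 198, 207 and 217 FPKM. The lysyl oxidase genes Lox and Loxl2, which cross-link collagen, had 0, 0.02 and 0 FPKM and 0.08, 0.04 and 0.13 FPKM.

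The cytoskeleton list had 28 of 35 genes expressed and 20 high, with a median of 169.6 FPKM. Actg1 and Actb shared the actins at 54.1% ± 1.4 and 45.8% ± 1.4 (SD, n = 3), and the muscle actins Acta1, Actc1, Acta2 and Actg2 had means of 1.56, 0.03, 0.08 and 0.097 FPKM. Pfn1, profilin-1, and Cfl1, cofilin-1, which load and sever actin, had 1015, 1027 and 1107 FPKM and 755, 755 and 787 FPKM. The actin-sequestering thymosins were led by Tmsb10 at 80.9% ± 1 of the set. Lmna, the gene of lamins A and C that stiffen the nucleus, had 597, 600.4 and 682 FPKM and took 87.2% ± 0.54 of the nuclear lamins. Tubb5 and Tuba1b were the leading tubulins at 884 and 822 FPKM; Tuba1b shares 99.4% of 1307 bases with Tuba1c, so the split of alpha-tubulins is uncertain.

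Many sets of related genes were led by a single member. Over 52 such sets, of enzymes, receptors, ligands and structural proteins, the leading member held over 50% of the summed FPKM in 48 and over 90% in 16, and the leader was the same in all 3 libraries in 51. In glycolysis, Ldha, the lactate dehydrogenase chain that favours lactate, held 99.8% ± 0.016 (SD, n = 3) of its set at 937, 980.1 and 1023 FPKM, and Ldhb had 2.49, 2.3 and 2.47 FPKM. Aldoa held 98.4% ± 0.23 of the aldolases, Pgam1 99.9% ± 0.003 of the phosphoglycerate mutases and Slc2a1, the GLUT1 gene, 86.3% ± 0.72 of the glucose transporters at 37.5, 38.1 and 47.4 FPKM. Among lactate transporter genes, Slc16a1, the MCT1 gene, led at 32.5, 33.5 and 31.9 FPKM, whereas Slc16a3, the MCT4 gene, had 0.01, 0 and 0.08 FPKM. Other metabolic sets were divided: the hexokinases by Hk1 at 57.4% ± 1.5 and Hk2 at 42.6% ± 1.5, the phosphofructokinases by Pfkl at 76.1% ± 1.1 and Pfkp at 19.4% ± 1.5, the isocitrate dehydrogenases by Idh2 at 67.3% ± 1 and Idh1 at 32.7% ± 1, and the ADP/ATP carriers by Slc25a5 at 63.6% ± 0.38 and Slc25a4 at 36.4% ± 0.38.

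Of 30 genes of the citric acid cycle and glutamine use 29 were expressed and Me3 was the exception at 0.68, 0.77 and 0.79 FPKM. Mdh2, mitochondrial malate dehydrogenase, led at 239.5, 258 and 273 FPKM. The glutamine transporter Slc1a5 had 68.7, 72.4 and 65.9 FPKM, and Slc3a2 and Slc7a5, the chains of a neutral amino acid exchanger, had 262, 274 and 265 and 189.6, 209 and 209 FPKM. In defence against oxidants, Gpx4, which reduces lipid peroxides, had 375, 375 and 399 FPKM, Sod1 had 326, 346 and 362 FPKM and the metallothioneins Mt2 and Mt1 had 266, 272 and 278 FPKM and 238, 253 and 269 FPKM. Slc7a11, the cystine importer, had 8.57, 9.02 and 6.86 FPKM and Nqo1 had 0.87, 0.84 and 0.64 FPKM. Scd2 held 93.2% ± 0.74 of the stearoyl-CoA desaturases, which make monounsaturated fatty acids.

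**Figure D4:**
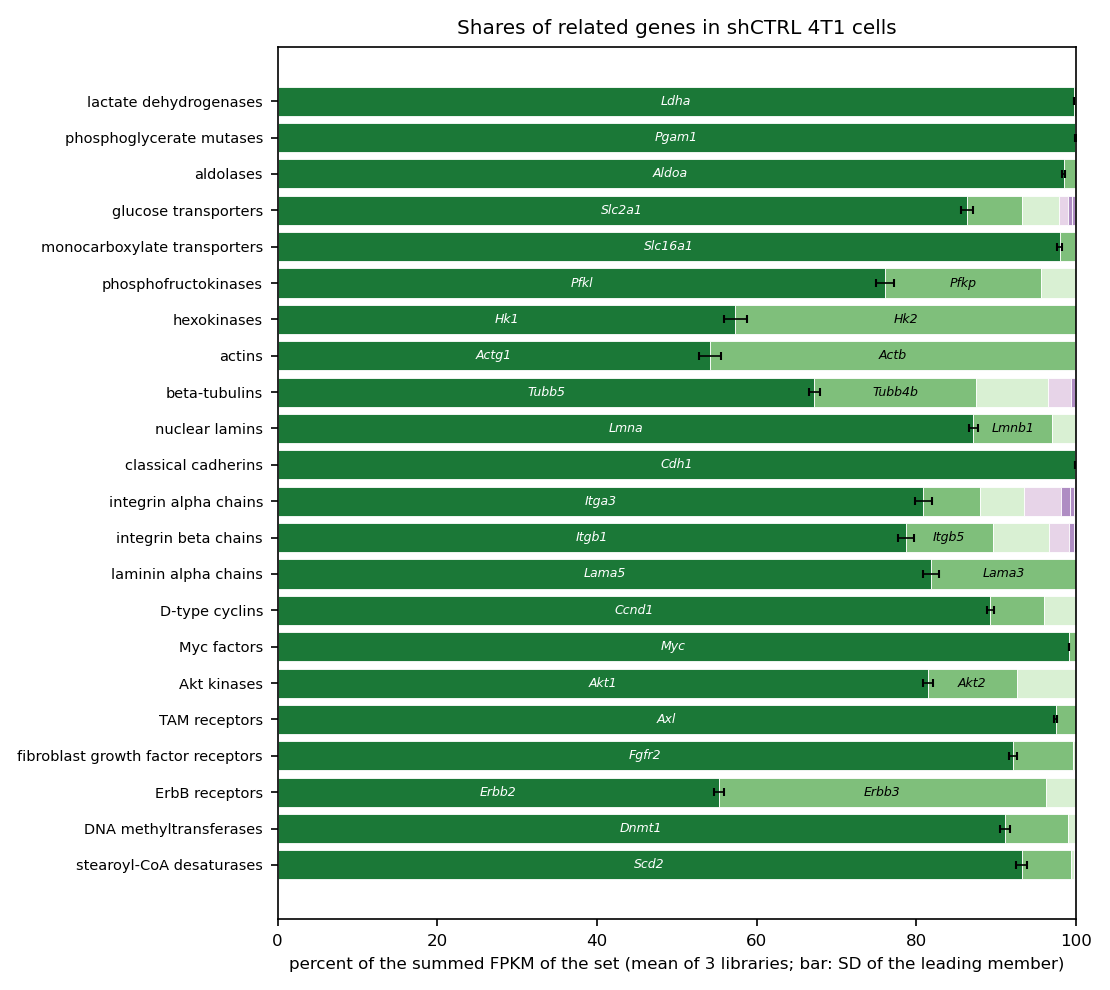
Percent of the summed FPKM of each of 22 sets of related genes held by its members, as the mean of 3 shCTRL libraries, with the SD of the leading member as a bar. Single genes fill the sets of Ldha, Pgam1, Aldoa, Cdh1, Myc and Axl, while Hk1 and Hk2, Actg1 and Actb, and Erbb2 and Erbb3 divide theirs.

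Genes of the cell cycle and of mitogenic signalling were abundant. All 29 proliferation genes were expressed and 14 were high, with a median of 99.4 FPKM; Cdk4 had 259.7, 263 and 272 FPKM, Pcna 195, 200.2 and 216 FPKM, Top2a 177, 169 and 165 FPKM and Mki67 61.98, 57.05 and 57.02 FPKM. Of 22 oncogenes 19 were expressed. Ccnd1, the cyclin partner of CDK4, had 468, 481 and 498 FPKM and 89.2% ± 0.45 (SD, n = 3) of the D-type cyclins, Myc had 189.7, 208 and 198 FPKM and Akt1 had 203, 210.1 and 219 FPKM. The Ras gene Nras had 102, 105 and 106 FPKM, above Hras at 36.5 FPKM in all 3 libraries.

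Tumour suppressor genes were expressed in 18 of 19 cases. Stk11, the kinase LKB1, had 51.3, 48.2 and 54.5 FPKM, Trp53 33.6, 31.9 and 31.6 FPKM and Rb1 3.08, 2.54 and 2.39 FPKM, and Cdkn1a, a target of p53, had 5.83, 6.6 and 6.95 FPKM. A level of RNA does not show whether the gene is mutated. The exception was Cdkn2b, the gene of the CDK4 inhibitor p15, at chr4:89306299-89311039 (GRCm38, minus strand), which was listed at 0 in all 3 libraries; Cdkn2a beside it was not analysed here. Mtap, the nearest gene with a value at lower coordinates, at chr4:89137122-89181081, was high at 259, 252 and 246 FPKM. Dmrta1 on the other side, at chr4:89679436-89694772, had 0.01, 0 and 0 FPKM and Ifne was listed at 0. In the BCL2 family 12 of 15 genes were expressed, with the survival genes Mcl1 and Bcl2l1 at 57.4, 57.3 and 54.8 FPKM and 43.3, 41.6 and 39.9 FPKM, Bcl2 at 5.05, 5.33 and 4.8 FPKM and the death effector Bax at 87.5, 87.2 and 87.5 FPKM.

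The series targets the Hippo pathway, of which the genes named here are a selection. In the control cells Yap1 had 49.3, 48.3 and 48.8 FPKM and its relative Wwtr1, the TAZ gene, had 31.97, 32.3 and 33.02 FPKM. Both co-activators bind DNA through TEAD factors, and all 4 Tead genes were expressed, Tead1 at 43.4, 42.6 and 41.4 FPKM and Tead2 at 32.9, 38.8 and 42.2 FPKM ahead of Tead4 and Tead3 at 15.9 and 6.797 FPKM. The upstream kinases Lats1 and Lats2 had 24.3, 23.3 and 21.99 FPKM and 16.4, 16.1 and 16.4 FPKM, and Nf2, the merlin gene, had 43.8, 45.1 and 42.1 FPKM. Of genes known as YAP targets, Ccn2 was measured at 148, 157 and 167 FPKM, Ccn1 at 116, 119.8 and 121 FPKM and Ankrd1 at 113, 112 and 103 FPKM; these 3 were picked after their values were seen, and no list of YAP targets was counted.

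Among other pathways, 20 of 32 Wnt and Notch genes were expressed, 62.5% against 59.8% of all genes. Ctnnb1, the beta-catenin gene, had 298, 311 and 327 FPKM, Wnt7b and Wnt7a led the Wnt ligands at 44.2, 42.99 and 49.6 FPKM and 25.8, 28.5 and 27.5 FPKM, and Axin2, a feedback target of the Wnt pathway, was listed at 0. Notch2 and Notch1 had 18.98 and 11.2 FPKM and Jag1, a Notch ligand, had 18.2, 18.6 and 17.4 FPKM. Nuclear receptors were expressed in 21 of 38 cases, 55.3%, with none in the high class, led by Nr1h2, Ppard, Rxrb, Esrra and Nr2f6 at means between 24.9 and 29.6 FPKM. The glucocorticoid receptor Nr3c1 had 11.7, 11.8 and 10.3 FPKM.

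Transcription factors showed sharp on and off patterns within families. Of a list of AP-1, ATF, STAT, NF-kB and SMAD factors that also holds Ybx1 and Myc, 34 of 38 genes were expressed. Ybx1 led with 25.4% of the summed FPKM of the list. Atf4, the factor of the integrated stress response, had 289, 290.4 and 283 FPKM. Junb had 228, 224 and 227 FPKM, Jund 139, 127 and 135 FPKM and Nfkb2 95.9, 104 and 102 FPKM. Fosl1 had 41.3, 46.3 and 44.3 FPKM, whereas Fos had 0.8, 0.66 and 0.63 FPKM. Among mammary and epithelial factors 24 of 38 were expressed, 63.2%, close to the share of all genes, with Ets1 at 82.5, 86.5 and 79.3 FPKM, Hmga2 at 54.9, 48 and 48.1 FPKM and Grhl2, a factor of epithelial junction genes, at 17.1, 17.4 and 17.3 FPKM, against Spdef at 0.03, 0 and 0 FPKM and Tfap2c at 0.2, 0.09 and 0.18 FPKM. In the Hox family, whose clusters set position along the body axis, 7 of 22 genes with a value were expressed and all 7 were in the Hoxa cluster, where 11 genes had a value. Hoxa5 led at 41.5, 40.2 and 40.3 FPKM, followed by Hoxa10 at 11.4, 10.5 and 8.16 FPKM and Hoxa3 at 10.7, 8 and 9.85 FPKM. From the Hoxb, Hoxc and Hoxd clusters 1, 6 and 4 genes had a value and 0 were expressed. Of the Sox family 6 of 15 were expressed, led by Sox4 at 42.1, 40.8 and 38.6 FPKM and Sox9 at 14.9, 15.6 and 16.4 FPKM, and 0 of 5 Pax genes was expressed.

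Other families ranged widely in how many members were expressed. Of 58 cytochrome P450 genes 6 were expressed (10 at a threshold of 0.5 FPKM), led by Cyp20a1 at 16.1, 16.5 and 16.04 FPKM, and 0 of 8 UDP-glucuronosyltransferases. Potassium channels were expressed in 6 of 67 cases, with the calcium-activated Kcnn4 at 58.2, 61.9 and 63.5 FPKM and the background channel Kcnk1 at 53.8, 55.3 and 59.3 FPKM holding most of the sum. Clustered protocadherins were expressed in 2 of 44 cases (1 at a threshold of 2 FPKM), serpins in 7 of 49, Wnt ligands in 4 of 17, and none of 12 mucin genes was expressed, Muc1 having 0.15, 0.08 and 0.04 FPKM. At the other end stood the proteasome with 47 of 49, the Eph receptors with 7 of 8, the frizzled receptors with 7 of 10 and the Zfp zinc finger genes with 268 of 377, against 59.8% of all genes with a value. Solute carriers were intermediate at 139 of 292, 47.6%, and the ABC transporters at 19 of 42, 45.2%.

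**Figure D5:**
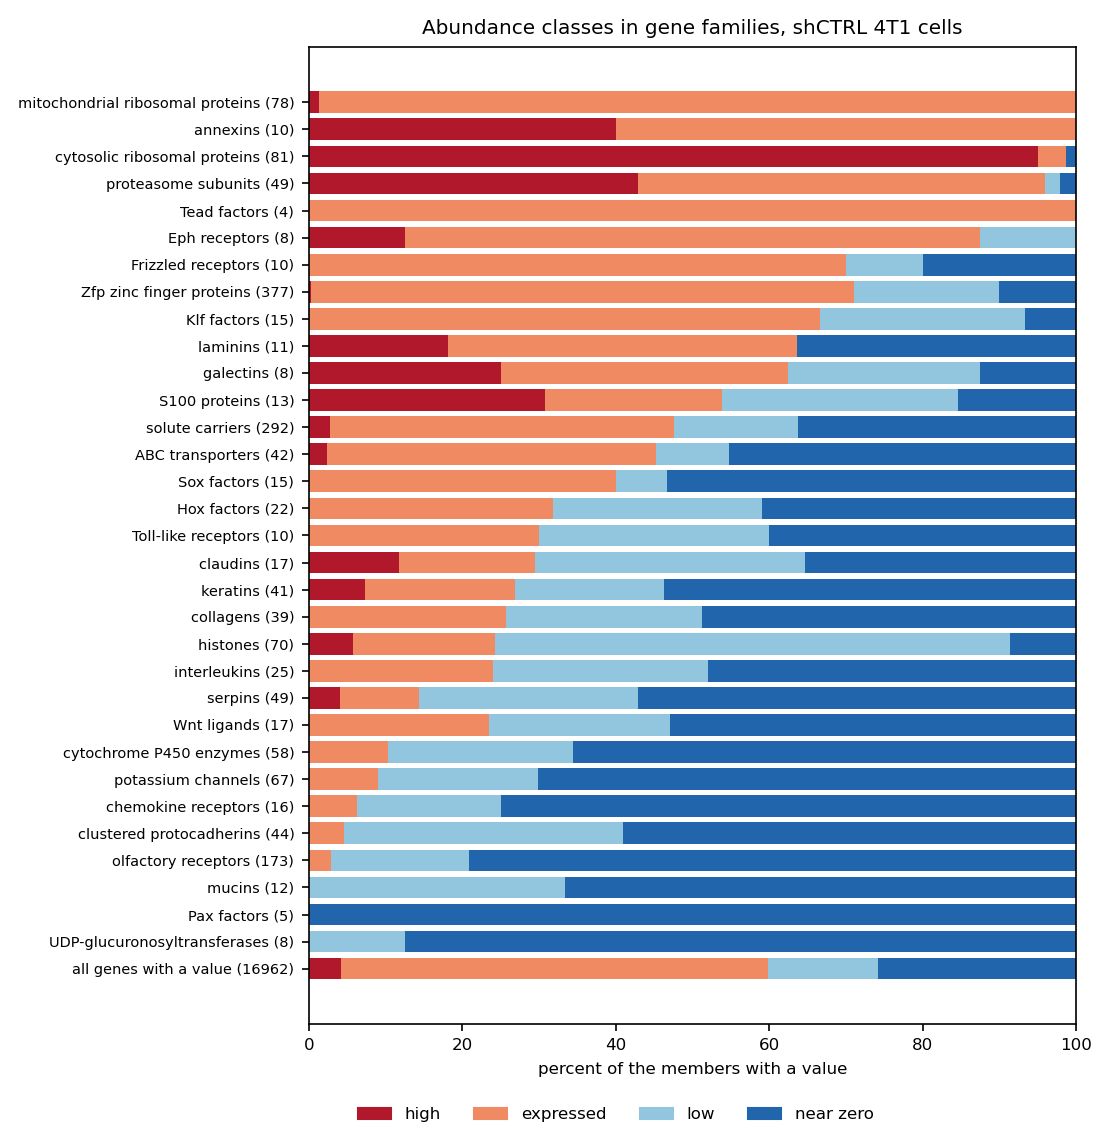
Percent of the members with a value in each abundance class for 32 gene families and for all 16962 genes (bottom bar), with the number of members in parentheses. The bars run between families that are expressed throughout, such as annexins and ribosomal proteins, and families near zero throughout, such as the Pax factors.

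Olfactory receptors were near zero with few exceptions, and the leading exceptions share sequence with other genes. Of 173 with a value, 5 were expressed, 2.9% (10 at a threshold of 0.5 FPKM and 3 at 2 FPKM), and 137 were near zero. Olfr1388 had 68.9, 71.8 and 70.3 FPKM and Olfr784 had 40.5, 40.5 and 40.2 FPKM, while Olfr1385, Olfr624 and Olfr11 had means of 3.897, 1.58 and 1.51 FPKM. The longest annotated transcript of Olfr784 matched one of Slc38a6 at 93.5% identity over 1393 bases and one of Noct at 96.0% over 1239 bases. The longest of Olfr1388 matched one of D10Wsu102e at 96.4% over 927 bases.

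Slc38a6 belongs to the same group. This gene of a sodium-coupled amino acid transporter family was the most abundant solute carrier at 779, 711 and 694 FPKM, above the mitochondrial phosphate carrier Slc25a3 at 571, 589 and 579 FPKM. Its longest transcript of 3927 bases matched Noct, the gene of the circadian protein nocturnin, at 98.5% identity over 3240 bases, and 13 genes had a transcript that matched it over at least 500 bases at 90% or more. Of these 13, 4 had a value: Noct at 282, 259 and 255 FPKM, Olfr784, D10Wsu102e at 32.1, 27.9 and 26.8 FPKM and Rab3gap1 at 18.2, 18.1 and 18.3 FPKM. Slc38a6, Noct and D10Wsu102e were each highest in replicate 1 and lowest in replicate 3, whereas Olfr784 and Rab3gap1 differed by little between libraries and were highest in replicates 2 and 3. How much of these levels comes from the shared stretch was not tested, so none of them can be read as the level of the named protein's transcript.

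Histones fell into separate groups. The 11 genes of replacement and other unclustered histones were expressed in 8 cases, led by H2afz at 734, 772 and 829.8 FPKM and H1f0 at 466, 445 and 470.3 FPKM. Of 59 clustered histone genes, whose symbols begin with Hist and whose transcripts mostly end in a stem-loop in place of a poly(A) tail, 9 were expressed. They differed between libraries: 56 of the 57 with any value above 0 were highest in replicate 3, against 31.8% of all expressed genes, and their FPKM summed to 40.23, 44.79 and 218.2. Hist2h2aa2 had 1.56, 4.52 and 22.7 FPKM, Hist1h4n 0.81, 1.36 and 13.9 FPKM and Hist1h3b 0.14, 0.68 and 6.75 FPKM, so replicate 3 was several-fold above both others. The unclustered histones summed to 2096.93, 2085.12 and 2193.1 FPKM, and the 29 proliferation genes to 3126.56, 3125.67 and 3165.94 FPKM, without such a gap. Without replicate 3, 9 of the 59 were expressed by the same rule. RNA was enriched with oligo(dT), and whether this difference lies in the cells or in the enrichment of replicate 3 was not tested.

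The spread between libraries set how finely levels can be compared. The coefficient of variation, the SD as a percent of the mean, had a median of 3.4% in high genes, 5.72% in other expressed genes and 36.99% in low genes. Of the 10145 expressed genes 342 had a coefficient over 20%, and 7 to 9 differed by more than 2-fold in FPKM + 1 between any pair of libraries. A gene near 1 FPKM can differ by 2-fold in FPKM itself without entering this count. In genes with 1 annotated transcript, the variance between libraries was 2.76, 4.03 and 2.71 times the sampling noise for replicates 1 and 2, 1 and 3, and 2 and 3. Among genes with a mean of at least 10 FPKM the widest were Nckipsd at 6.04, 24.4 and 5.59 FPKM, Pkd1 at 10.5, 35.2 and 10.5 FPKM and Uqcc1 at 13.2, 13.4 and 39.3 FPKM, each with 1 library far above both others. Recql had 21.3, 9.27 and 12.4 FPKM, Ilvbl 15.98, 8.6 and 10.2 FPKM, Rnf141 25.8, 14.7 and 17.2 FPKM and Mier1 19.1, 11.8 and 11.6 FPKM, each highest in replicate 1. Nrm had 9.05, 15.99 and 8.42 FPKM, Gm10131 24.1, 14.2 and 15.8 FPKM and Ece1, the endothelin-converting enzyme, 59.98, 99.4 and 109.7 FPKM. Of these 10 genes, 9 have 3 to 19 annotated transcripts. Several transcripts are the common case, since 2429 of the 16962 genes have 1 annotated transcript, leaving out mitochondrially encoded genes. A link between transcript number and spread was not tested.

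Chromosomes differed little in the share of expressed genes. Of the coding genes with a value, 65.9% were expressed on chromosome 8, 64.8% on chromosome 19 and 52.2% on chromosome X, the lowest share outside the Y chromosome. On the Y chromosome 1 of 7 was expressed, the predicted gene Gm21244 at 1.49, 1.31 and 1.41 FPKM, while Ddx3y, Eif2s3y, Kdm5d and Uty had means under 0.1 FPKM. Gm21244 shares sequence with other genes: the longest transcript of Olfr624 matched it at 95.7% identity over 1887 bases. That Olfr624 transcript matched 255 genes over at least 200 bases. The level of Gm21244 can thus not be read as that of a Y-linked transcript.

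Few genes outside the protein-coding class had a value, since 16887 of the 16962 genes are annotated as protein-coding. How much non-coding RNA the cells hold can therefore not be read here. The most abundant of those annotated as processed transcript or lincRNA were Cct6a at 177, 178 and 173 FPKM, Tmem134 at 25.6 FPKM, 1810058I24Rik at 14.5 FPKM, Tmem250-ps at 13.8 FPKM and Ptpmt1 at 13.5 FPKM; several of these carry the symbols of protein genes. Clec2f, a C-type lectin gene annotated as a transcribed pseudogene, had 35.6, 25.9 and 22.8 FPKM.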

How the data were processed

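Per the labels' protocols, Trizol RNA of the 3 shCTRL samples was selected on oligo(dT) beads, made into NEBNext Ultra libraries and read on a Novaseq6000 instrument. The authors deposited FPKM, rounded to 2 decimals, in 2 tables of 16530 and 16358 genes that both carry these libraries; 0 values differed in the 15926 shared genes. Per the submitters' processing notes, fastp 0.18.0, HISAT2 2.1.0, StringTie 1.3.4, RSEM and the mm10 build were used; what each did, the gene annotation, any filter and the strand setting are not given in the sources used here. A gene at 0 can be a failed assignment, since some second identifiers of overlapping gene models are listed at 0. Identifiers were matched to GENCODE vM21 (16951 of 16962) for symbols, positions and lengths; for 13 symbols with 2 identifiers the more abundant one was used.

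Depth was taken as the value that turns low FPKM, multiplied by exonic length, into whole fragments for genes with 1 annotated transcript. On simulated data it was off by at most 0.05 M fragments. Sequence matches were found with BLAST 2.17.0, by searching the longest annotated transcript of a gene against all annotated transcripts of other genes. Promoters are RefSeq's on GRCm38.p6. Lists (36), symbol families (57) and paralog sets (52) were chosen with earlier results of these data known. Named genes are the 50 most abundant, members of lists of at most 12 genes, the 5 most abundant and defining members of longer lists, the 10 most variable and the 10 most abundant non-coding ones; some of these are given as counts and ranges, and a few are not reported here. No test was made, and no count model was fitted to FPKM. Python 3.11.15, numpy 2.4.6, pandas 2.3.3 and matplotlib 3.10.9 were used.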

Additional observations from a re-analysis of the deposited data

How the results depend on the processing

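No paired analysis was possible because only the shCTRL libraries are described and no groups are compared. The counts of expressed genes (10145), of genes near zero (4371) and of expressed members over all lists and families (1382) stayed within 1.5 times under every alternative run. Expressed genes numbered 10664 at 0.5 FPKM, 9484 at 2 FPKM and 10324 by the mean. They numbered 10649 after each library was rescaled to a sum of 1 M, from sums of 502866, 506082 and 509948 FPKM. This rescaling raised all values above 0 and put the cut of 1 near 0.5 FPKM. It thus largely repeats the run at 0.5 FPKM and is not a separate check. With 1 library left out, between 10179 and 10221 genes were expressed and 4556 to 4610 were near zero. The share of the 100 most abundant genes was 32.92% without mitochondrially encoded genes and 22.35% as a share of fragments, and between 33.58% and 33.91% with 1 library left out. The median coefficient of variation was 8.39% with no filter on low values and between 4.01% and 5.21% with 1 library left out; as SD on the log2 scale it was 0.072 with a pseudocount of 1 and 0.079 with 0.1. Of 93 lists and families, 4 counts moved by over 1.5 times at 0.5 FPKM, 7 at 2 FPKM, 1 by the mean and 3 after rescaling, among them keratins (7 at 2 FPKM), cytochrome P450 genes (10 at 0.5 FPKM) and olfactory receptors (10 at 0.5 FPKM and 3 at 2 FPKM); expressed histones numbered 17 by every library and 44 by the mean, which replicate 3 raises. Depth limits single genes near zero, where 3 fragments of a 1 kb transcript are 0.122 to 0.135 FPKM.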

Other observations

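Some gene groups lay outside the lists above. Ephrin ligands were expressed in 5 of 8 cases, led by Efnb2 at 39.4, 44.1 and 40.03 FPKM, beside the Eph receptors Ephb4 and Epha1 at means of 29.9 and 20.5 FPKM. Among semaphorins, which guide axons and vessels, 8 of 20 were expressed and Sema3f took 50.5% of their summed FPKM at 51.5, 54.4 and 61.8 FPKM. Bmp1, a procollagen protease named among the bone morphogenetic proteins, had 106, 109 and 114 FPKM, whereas 8 of the 10 genes with a value in that family were near zero. Gstp1 and Gsto1 led the glutathione S-transferases at 159, 159.8 and 172 FPKM and 157, 152 and 149.7 FPKM, and Aldh18a1, an enzyme of proline synthesis, led the aldehyde dehydrogenases at 101, 110.1 and 103 FPKM. Maged1 was the only Mage gene in the high class, at 165, 166 and 173 FPKM, and Dnmt1, the maintenance DNA methyltransferase, held 91.1% ± 0.6 (SD, n = 3) of its set.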
